A study of Mus musculus with 22 samples.

Results

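The genes described here are 10 markers of reactive astrocytes that are not intermediate filaments: Lcn2, Ptx3, Tgm1, Aspg, Emp1, Cd109, Ptgs2, Steap4, S1pr3 and Slc10a6. They were taken by symbol from a table of 24060 genes, and all 10 were found in it. Expression profiling of mouse astrocytes named 4 of them (Lcn2, Aspg, Steap4 and S1pr3) as pan-reactive, raised by systemic inflammation and by ischaemia alike, and 6 (Ptx3, Tgm1, Emp1, Cd109, Ptgs2 and Slc10a6) as raised mainly by ischaemia, a class often called A2. By known function 2 are secreted (Lcn2 and Ptx3), 3 are enzymes (Tgm1, Aspg and Ptgs2) and 5 are membrane proteins (Emp1, Cd109, Steap4, S1pr3 and Slc10a6), so a name such as secreted and enzymatic markers covers 5 of the 10.

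RNA came from the spinal cord of 11 young adult female mice. All carried a Cre recombinase under a mouse Gfap promoter and the RiboTag allele, which puts a hemagglutinin (HA) epitope on a ribosomal protein in cells that have had Cre. STAT3-CKO mice (n = 3) also carried loxP-flanked Stat3, so the same Cre that tags the ribosomes removes the gene, and they were studied after spinal cord injury (SCI). WT SCI mice (n = 4) had the injury without the floxed allele, and WT uninjured mice (n = 4) had neither. The injury was a severe crush at thoracic level 10, and 14 days later the middle 3 mm of the lesion was homogenized. Each homogenate gave an HA immunoprecipitate (HA IP), holding ribosome-bound RNA of the tagged cells, and a flow-through, the RNA that was not bound, for 22 libraries in 6 groups. The tag and the deletion mark cells in which the Gfap promoter has been active, whatever their state at harvest.

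Astrocytes around a spinal cord lesion become reactive: they enlarge, divide and form a border around the damaged core. STAT3 is a transcription factor activated below the gp130 family of cytokine receptors, which bind interleukin-6, leukemia inhibitory factor and related ligands, and mice without STAT3 in astrocytes are known to form a poorer border. Lcn2 (lipocalin 2) binds bacterial siderophores and so withholds iron, and is also a granule protein of neutrophils. Ptx3 is a long pentraxin of innate immunity that binds microbes and complement. Tgm1 cross-links proteins, Aspg breaks down asparagine, and Ptgs2 (cyclooxygenase 2) makes the precursor of prostaglandins. Emp1 is a tetraspan epithelial membrane protein. Cd109 is a membrane-anchored relative of alpha-2-macroglobulin that restrains TGF-beta signalling. Steap4 reduces iron and copper at membranes, S1pr3 is a receptor for sphingosine 1-phosphate, and Slc10a6 carries sulphated steroids into cells.

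On GRCm38 (GENCODE vM21) the secreted genes lie at chr2:32384633-32388252 (Lcn2, minus strand) and chr3:66219910-66225805 (Ptx3, plus strand). The enzymes lie at chr14:55700009-55713926 (Tgm1, minus), chr12:112106679-112127559 (Aspg, plus) and chr1:150100031-150108227 (Ptgs2, plus). The membrane proteins lie at chr6:135362545-135383173 (Emp1, plus), chr9:78615546-78716253 (Cd109, plus), chr5:7960457-7982213 (Steap4, plus), chr13:51408639-51422797 (S1pr3, plus) and chr5:103605711-103629403 (Slc10a6, minus). Counts are per gene, over the whole gene as the deposited table names it.

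Promoter windows running from 250 bases before to 50 bases after a transcription start were read from RefSeq (GRCm38.p6) for 9 of the 10 genes, 11 windows in all. The palindromic STAT motif TTCNNNGAA was present in 3 of the 11 windows and in 8.3% of 32851 promoters of the same length. These 3 windows are printed because they are the ones that hold the binding motif of the deleted factor. Capitals mark the STAT motif.
Tgm1, chr14:55713443-55713742, minus strand: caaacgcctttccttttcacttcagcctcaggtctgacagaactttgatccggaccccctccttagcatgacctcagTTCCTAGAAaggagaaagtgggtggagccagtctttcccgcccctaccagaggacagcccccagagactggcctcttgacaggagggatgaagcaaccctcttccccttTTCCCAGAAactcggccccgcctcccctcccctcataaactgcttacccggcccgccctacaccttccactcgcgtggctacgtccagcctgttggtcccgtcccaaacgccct
Steap4, chr5:7960222-7960521, plus strand: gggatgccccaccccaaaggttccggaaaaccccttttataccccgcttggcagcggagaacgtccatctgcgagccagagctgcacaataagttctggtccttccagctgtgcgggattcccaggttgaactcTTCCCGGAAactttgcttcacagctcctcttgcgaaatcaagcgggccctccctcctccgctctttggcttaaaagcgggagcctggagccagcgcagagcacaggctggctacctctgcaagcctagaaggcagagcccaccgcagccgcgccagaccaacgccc
Emp1, chr6:135362681-135362980, plus strand: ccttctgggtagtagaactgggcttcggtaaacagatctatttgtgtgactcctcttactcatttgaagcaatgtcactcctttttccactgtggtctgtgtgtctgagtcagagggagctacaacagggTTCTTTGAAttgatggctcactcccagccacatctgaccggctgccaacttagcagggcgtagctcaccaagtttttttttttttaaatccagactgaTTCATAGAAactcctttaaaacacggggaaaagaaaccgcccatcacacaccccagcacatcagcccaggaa
Tgm1 held 2 copies, TTCCTAGAA beginning at -173 and TTCCCAGAA beginning at -64 from the start. Steap4 held 1 copy, TTCCCGGAA at -116, which also met the narrower form TTCCNGGAA found in 1.15% of promoters. Emp1 held TTCTTTGAA at -120 and TTCATAGAA at -22, and its window was the only one of the 11 with an AP-1 motif (TGANTCA, 7.81% of promoters). The AP-1 matches were TGAGTCA at -145 and TGATTCA at -25, and the match at -25 overlapped the STAT copy at -22. The NF-kB consensus stood in windows of Lcn2, Ptx3, Steap4 and Tgm1, against 26.8% of all promoters. Tgm1 and Emp1 each had another window, at chr14:55713039-55713338 and chr6:135367243-135367542, that did not hold the STAT motif. Both strands were searched. A match describes the letters of the window and does not show binding, and a window without the motif says only that these letters are not in it.

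The fractions of an animal were related in the deposited counts. In each of the 11 animals the HA IP count was lower than the flow-through count of that same animal for only 0 to 3 genes, among 8963 to 16320 genes with a flow-through count. Set against the flow-through of another animal of the same group, an HA IP library was lower for 109 to 12654 genes (median 1334, 30 pairs). Among genes with a flow-through count of 3 to 20, the counts were exactly equal for 5.62% to 18.07% of genes within an animal and for 0.116% to 3.69% between animals of a group. Flow-through totals were 10.68% to 22.12% of the HA IP totals. Whether the HA IP counts include the flow-through reads of the same animal is not given in the sources used here. Results use the counts as deposited, and HA IP results were recomputed with the animal's flow-through count subtracted, an alternative chosen after seeing the data.

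**Figure D1:**
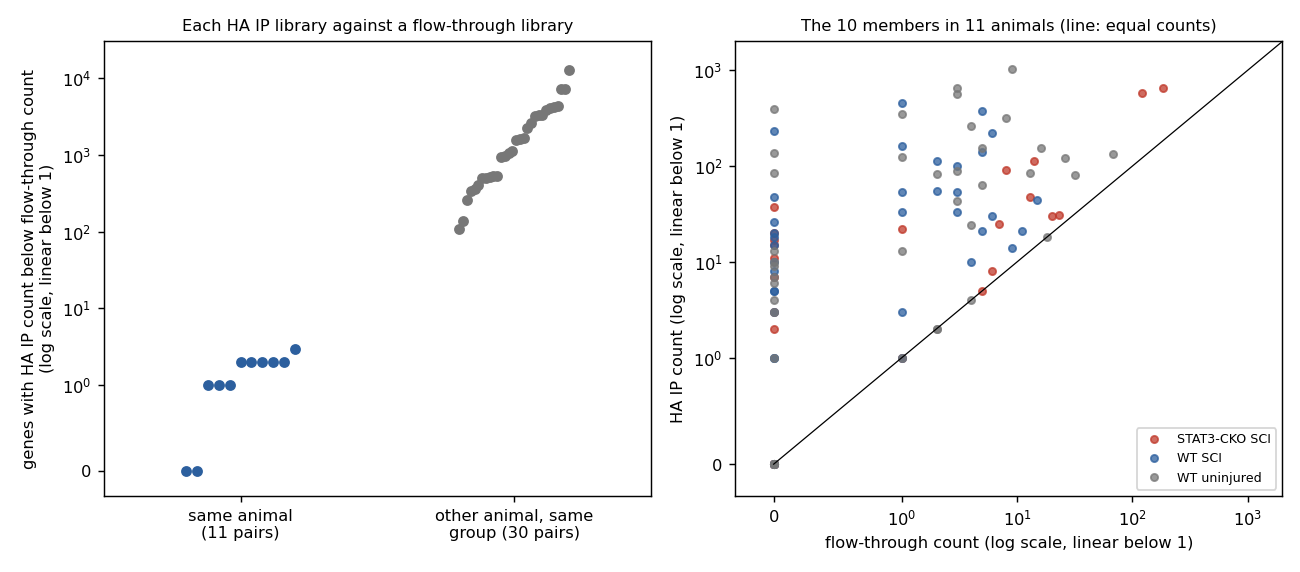
Left, the number of genes whose HA IP count is below the flow-through count, for 11 pairs of libraries from the same animal and 30 pairs from different animals of 1 group (log scale, linear below 1). Right, HA IP count against flow-through count for the 10 genes in 11 animals, with the line of equal counts: no point lies under the line.

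Within the 10 genes no HA IP count fell below its flow-through partner in any animal. Ptgs2 had equal counts in the fractions in 10 of 11 animals, 5 of them above 0, so its HA IP count beyond the flow-through came to 1 read in 1 animal. Lcn2 had 18 counts in both fractions of the uninjured animal 154, which is most of the 21 HA IP counts of that group.

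Depth differed between groups. The ribosomal RNA row Rn45s took 52.18% to 89.23% of HA IP counts in STAT3-CKO SCI, 89% to 96.15% in WT SCI and 12.59% to 26.72% in WT uninjured libraries. Counts outside the ribosomal rows numbered 2496641 to 17348247, 620265 to 2691494 and 26934866 to 51571785 in those HA IP groups in that order. Depth and Rn45s share therefore cannot be told apart from injury. Both also differed between STAT3-CKO SCI and WT SCI, with ranges that overlapped only at their ends. Their part in the genotype differences cannot be told apart from that of genotype. Stat3 itself, counted over the whole gene, stood at 7.85, 10.1 and 12.3 CPM (counts scaled to a common library size, with TMM factors) in STAT3-CKO SCI HA IP, against 66.1, 56.2, 26.3 and 35.0 CPM in WT SCI and 12.2 to 15.5 CPM in WT uninjured HA IP. It was lower in STAT3-CKO SCI than in WT SCI (log2 change -2.17 ± 0.34 SE, adjusted p = 0.00331). The floxed exons are not stated, and exons of Stat3 overlap those of Stat5a on the opposite strand, so reads there cannot be told apart. Of 8 astrocyte markers, all were detected in HA IP of every group, with summed levels of 2269 to 2777 CPM in STAT3-CKO SCI, 1336 to 2342 CPM in WT SCI and 3158 to 4347 CPM in WT uninjured animals.

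Injury alone was addressed by WT SCI against WT uninjured animals. In HA IP, 8 of the 10 genes passed the filter on low counts (Ptgs2 and Slc10a6 did not) and 6 were higher after injury at an adjusted p under 0.05, where 15.8% of 14764 genes were higher and 26.7% passed in either direction. With flow-through counts subtracted 4 of 7 tested were higher, where 11.2% of genes were higher and 20.6% passed in either direction. The 6 genes were Lcn2, Ptx3, Tgm1, Cd109, Steap4 and S1pr3, both secreted genes among them. The median log2 change of the 8 was 4.73, and that of all genes tested was 0.00017. A gene that is low in uninjured tissue passes the filter through the injured libraries, so these counts describe the tested genes only.

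Lcn2 was at 2.61, 18.4, 3.49 and 6.93 CPM in the 4 WT SCI mice, against 0.00888, 0, 0 and 0.0628 CPM in the 4 WT uninjured animals. Every injured animal lay above every uninjured one. The log2 change was 8.59 ± 1.22 (SE; adjusted p = 4.55e-05), and 10.88 ± 1.24 with flow-through counts subtracted. Because Lcn2 is also a neutrophil gene, neutrophil markers are given beside it: of 9 in the table none passed the filter, their summed HA IP level was 0 to 1.96 CPM in WT SCI and 0.00612 to 0.209 CPM in WT uninjured animals, and Elane, Ltf and Cxcr2 were at 0 in WT SCI. The remaining neutrophil markers held 26 counts in WT SCI, where 3 counts equal 0.206 to 0.978 CPM. The part of neutrophils in the Lcn2 change was not tested.

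Ptx3 separated the injured animals into high and low. It was at 0.326, 26.5, 0.872 and 31.5 CPM in WT SCI animals 9935, 9874, 9843 and 9596, against 0.355, 0.459, 0.508 and 0.220 CPM in WT uninjured animals. Animals 9874 and 9596 were far above all uninjured animals, while animal 9935 lay inside the uninjured range on a single read. The change in group means passed the test (log2 5.30 ± 0.94, adjusted p = 0.000389), with a spread among injured animals (mean 14.8 ± 16.5 CPM, SD, n = 4) as large as the mean.

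Among the enzymes, Tgm1 was higher after injury. It stood at 4.89, 42.5, 9.59 and 9.53 CPM in WT SCI mice, against 0.0296, 0.0365, 0.00612 and 0.0453 CPM in WT uninjured animals, with no overlap. Its log2 change was 9.06 ± 0.95 (adjusted p = 2.06e-06) and 9.01 ± 0.98 after subtraction. Tgm1 shares exon sequence with the antisense gene Gm49067 and S1pr3 with the opposite-strand gene Gm32834, and since strand use in counting is not given in the sources used here, reads of such pairs cannot be told apart.

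Aspg had a different distribution, at 5.87, 0.566, 0 and 7.82 CPM in WT SCI animals 9935, 9874, 9843 and 9596 against 0.459, 0.715, 0.520 and 1.21 CPM in WT uninjured animals. It was high in 9935 and 9596, and inside or below the uninjured range in the other two. Its log2 change of 2.29 ± 0.95 did not pass (adjusted p = 0.0788). Without animal 9874 or without 9843 it did (log2 2.66, adjusted p = 0.0331, and log2 2.70, adjusted p = 0.0193). Ptgs2 had 2 HA IP counts over the WT SCI group and 8 over the WT uninjured group, a ratio of 7.60 in CPM with a counting interval of 0.786 to 38.1, and was not tested.

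Among the membrane proteins S1pr3 was at 8.47, 25.2, 5.75 and 3.63 CPM in WT SCI and 0.396, 0.443, 0.263 and 0.279 CPM in WT uninjured animals. All injured animals were above all uninjured ones (log2 4.96 ± 0.68, adjusted p = 3.32e-05). Steap4 was at 0, 1.58, 0.523 and 2.26 CPM in WT SCI and 0.0118, 0.00522, 0.147 and 0.0453 CPM in WT uninjured animals; 3 injured animals were above the uninjured range and animal 9935 was at 0, where 3 counts would be 0.978 CPM. Its change was 4.50 ± 1.14 (log2, adjusted p = 0.00679), and it fell below the filter once flow-through counts were subtracted.

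Cd109 had closely spaced injured values, 3.26, 3.39, 3.66 and 3.02 CPM in WT SCI against 0.781, 0.642, 0.943 and 1.11 CPM in WT uninjured animals. The groups did not overlap, and the log2 change of 1.94 ± 0.56 passed (adjusted p = 0.0155). It did not pass with flow-through counts subtracted (log2 1.65, adjusted p = 0.0915), without uninjured animal 42 (log2 1.88, adjusted p = 0.0524) or without uninjured animal 79 (adjusted p = 0.0614). Emp1 was at 3.26, 5.43, 3.66 and 3.70 CPM in WT SCI and 3.02, 2.97, 2.42 and 2.25 CPM in WT uninjured animals. Each injured value exceeded each uninjured one by a small margin, and the change of 0.60 ± 0.50 (log2) did not pass (adjusted p = 0.395). Slc10a6 had 3 counts in 1 WT SCI animal and 15 counts over the WT uninjured group (ratio 6.08 in CPM, counting interval 1.13 to 21.5).

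**Figure D2:**
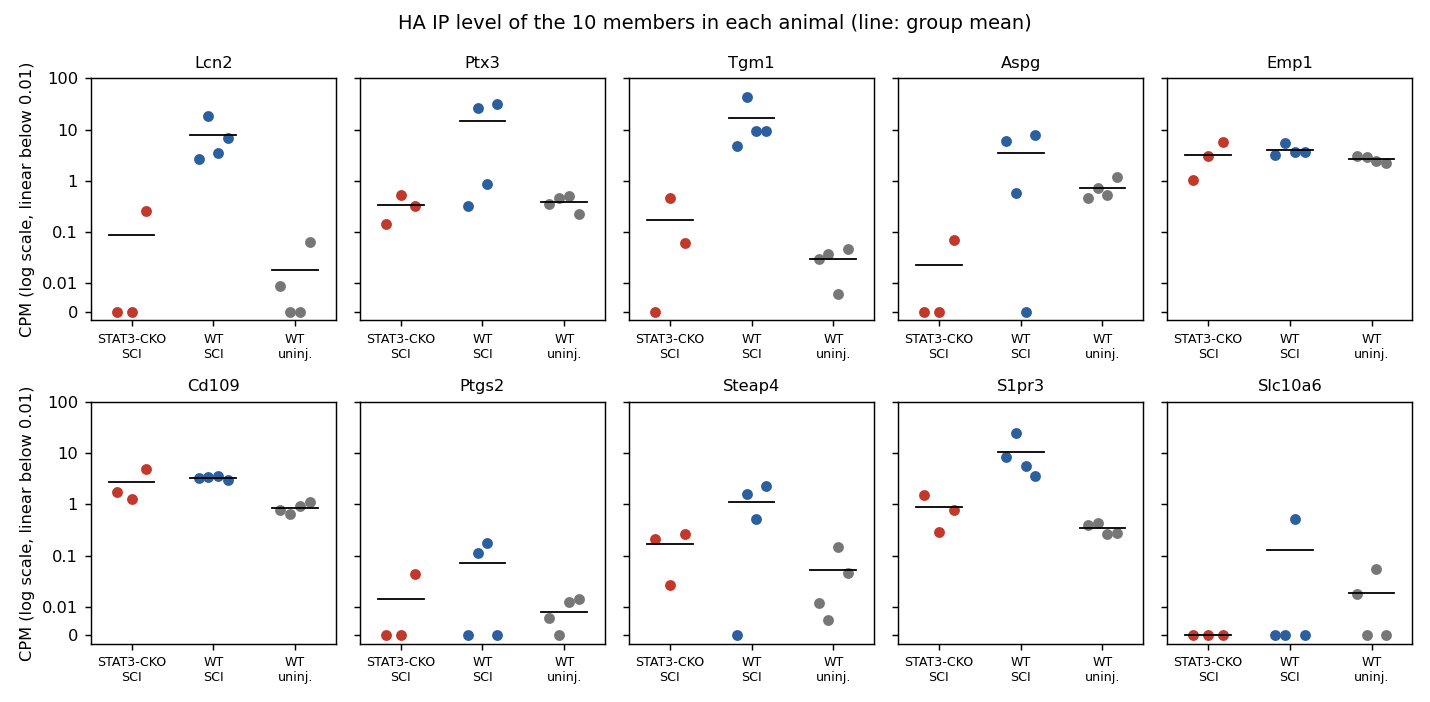
HA IP level (CPM, log scale, linear below 0.01) of each of the 10 genes in each animal, by group, with the group mean as a line. Lcn2, Tgm1 and S1pr3 separate WT SCI animals from both other groups, whereas Emp1 covers 1.05 to 5.67 CPM in STAT3-CKO SCI, 3.26 to 5.43 CPM in WT SCI and 2.25 to 3.02 CPM in WT uninjured animals.

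Markers of other cell types moved with injury in the same HA IP libraries. Of 12 microglia and macrophage markers 11 were higher in WT SCI, with summed levels of 574 to 2081 CPM in WT SCI and 9.81 to 24.6 CPM in WT uninjured animals, and of 93.7 to 603 CPM and 4.70 to 20.3 CPM after subtraction. Of 5 fibroblast and pericyte markers tested 3 were higher (10.7 to 61.6 CPM in WT SCI and 8.52 to 12.7 CPM in WT uninjured animals), and of 7 endothelial markers only 2 were tested, with Vwf higher and Pecam1, Cdh5 and Cldn5 at 0 in WT SCI. All 6 oligodendrocyte and all 5 oligodendrocyte precursor markers were higher, 4 of 6 neuronal and 5 of 8 astrocyte markers were lower, 1 of 5 ependymal markers was higher, and none of 4 Schwann cell markers passed. The part of these cells in the changes above was not tested. In bulk RNA of this kind, fewer cells of a type and less RNA per cell cannot be told apart.

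The genotypes were compared after injury, by STAT3-CKO SCI against WT SCI animals. The series has no uninjured STAT3-CKO animals. A genotype difference present before injury therefore cannot be told apart from a changed response to injury. In HA IP, 5 of the 8 genes tested were lower in STAT3-CKO SCI and none was higher, where 0.562% of 14764 genes were lower and 1.16% passed in either direction. The 5 were Lcn2, Ptx3, Tgm1, Aspg and S1pr3, that is, both secreted genes, both enzymes tested and 1 of 4 membrane proteins tested. The same 5 were lower with flow-through counts subtracted, where 0.569% of genes were lower and 1.24% passed in either direction. The median log2 change of the 8 was -4.56, against 0.03 for all genes tested. Genes that are high only in WT SCI pass the filter through that group. Tgm1 had 24, 585 and 31 HA IP counts over STAT3-CKO SCI, WT SCI and WT uninjured animals, and Lcn2 had 30, 292 and 21. The counts of calls and the median therefore describe the tested genes only.

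Tgm1 was at 0, 0.456 and 0.0605 CPM in STAT3-CKO SCI animals 186, 531 and 270, against 4.89 to 42.5 CPM in WT SCI, with no overlap. Its log2 change of -6.53 ± 0.99 (adjusted p = 0.00264) passed whichever animal was left out (adjusted p 0.00198 to 0.0366). Lcn2 was at 0, 0 and 0.259 CPM in STAT3-CKO SCI, against 2.61 to 18.4 CPM in WT SCI, also without overlap. Its 30 HA IP counts in STAT3-CKO SCI all came from animal 270, whose flow-through held 20. The change was -6.03 ± 1.26 (log2, adjusted p = 0.0240) and -7.34 ± 1.24 after subtraction.

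Ptx3 was at 0.140, 0.536 and 0.320 CPM in STAT3-CKO SCI, against 0.326, 26.5, 0.872 and 31.5 CPM in WT SCI. The groups overlapped, since WT SCI animal 9935 lay under 1 STAT3-CKO value, and the log2 change was -5.43 ± 1.10 (adjusted p = 0.0214). Aspg was at 0, 0 and 0.0692 CPM in STAT3-CKO SCI, against 5.87, 0.566, 0 and 7.82 CPM in WT SCI. They too overlapped, through WT SCI animal 9843 at 0, and the log2 change was -6.53 ± 1.40 (adjusted p = 0.0259). S1pr3 was at 1.54, 0.295 and 0.795 CPM in STAT3-CKO SCI, against 3.63 to 25.2 CPM in WT SCI, without overlap (log2 -3.68 ± 0.74, adjusted p = 0.0201).

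The calls for these 4 depended on single animals. Lcn2 no longer passed without WT SCI animal 9874 (adjusted p = 0.0514), without STAT3-CKO animal 186 (0.0814) or without 531 (0.103), and without animal 270, the only one with Lcn2 counts, the fitted log2 change was -12.71 (adjusted p = 0.0465), a value that depends on the fit since the remaining counts are 0. Ptx3 and Aspg no longer passed without any single STAT3-CKO animal (adjusted p 0.0854 to 0.130 for Ptx3 and 0.0835 to 0.122 for Aspg, whose fitted log2 change was -11.54 without animal 270, again with no STAT3-CKO count left). S1pr3 no longer passed without WT SCI animal 9874 (0.0512) or without STAT3-CKO animals 531 (0.0992) or 270 (0.112). With only the 2 groups in the fit, Lcn2 and Tgm1 passed, 2 in place of 5, Ptx3 and S1pr3 had adjusted p-values of 0.0618 and 0.0762, and Aspg fell below the filter.

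The remaining membrane proteins did not pass. Cd109 was at 1.75, 1.29 and 5.04 CPM in STAT3-CKO SCI, against 3.26, 3.39, 3.66 and 3.02 CPM in WT SCI (log2 -0.29 ± 0.59, adjusted p = 0.847). Emp1 was at 1.05, 3.06 and 5.67 CPM in STAT3-CKO SCI, against 3.26 to 5.43 CPM in WT SCI (log2 -0.29 ± 0.55, adjusted p = 0.832). For both genes animal 270 was above the whole WT SCI group and the other two STAT3-CKO animals were below it. Steap4 was at 0.210, 0.0268 and 0.268 CPM in STAT3-CKO SCI, against 0, 1.58, 0.523 and 2.26 CPM in WT SCI (log2 -2.79 ± 1.22, adjusted p = 0.264), with overlap through animal 9935. Slc10a6 had no count in any of the 3 STAT3-CKO libraries and 3 counts in WT SCI, so no difference was detectable at this depth. Ptgs2 was at 0, 0 and 0.0432 CPM in STAT3-CKO SCI, against 0, 0.113, 0.174 and 0 CPM in WT SCI, on 5 and 2 counts, and was not tested.

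**Figure D3:**
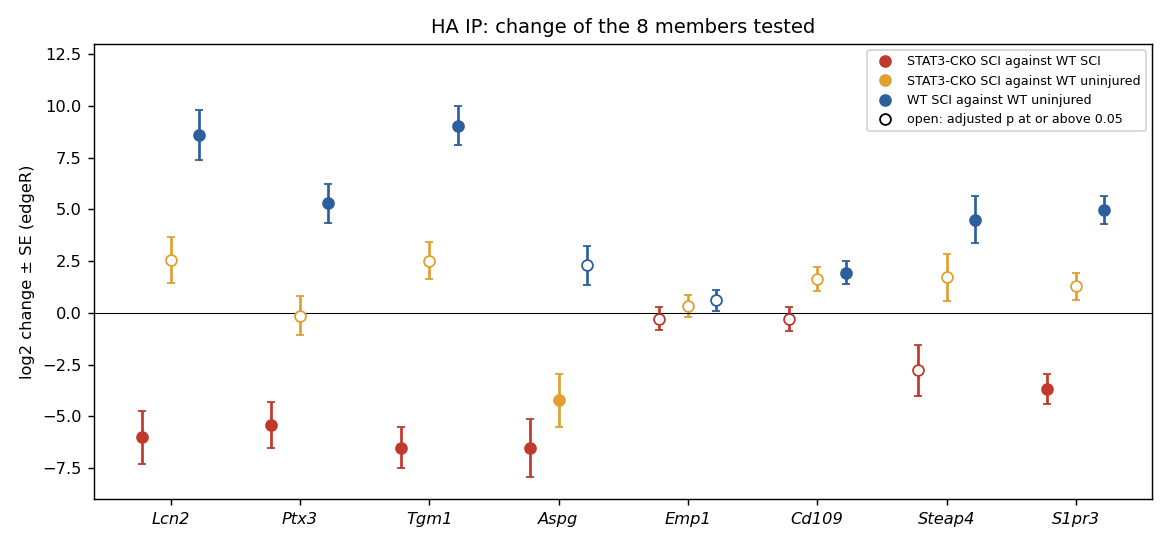
Log2 change with its standard error in HA IP for the 8 genes tested, in STAT3-CKO SCI against WT SCI, STAT3-CKO SCI against WT uninjured and WT SCI against WT uninjured animals; filled points passed an adjusted p of 0.05. The comparisons share groups, so their points are not independent.

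Against WT uninjured animals, STAT3-CKO SCI HA IP had 1 of the 8 genes past the threshold, where 2.08% of 14764 genes were lower and 9.78% passed in either direction. This was Aspg, which was lower than in uninjured cord (0, 0 and 0.0692 CPM in STAT3-CKO SCI against 0.459 to 1.21 CPM in WT uninjured animals, log2 -4.24 ± 1.30, adjusted p = 0.0441). The groups did not overlap, but the STAT3-CKO total is 8 counts, all in animal 270, whose flow-through held 6. The call was lost when any 1 of the 7 animals was left out (adjusted p = 0.0596 without animal 270, at a fitted log2 change of -9.27 with no STAT3-CKO count left, and 0.172 without 531, with 0.0698, 0.0807, 0.0684 and 0.106 without uninjured animals 42, 79, 65 and 154, and 0.130 without 186). Lcn2 and Tgm1 had log2 changes of 2.56 ± 1.11 and 2.53 ± 0.91 that did not pass (adjusted p = 0.170 and 0.0882), though Lcn2 passed without uninjured animal 154 (log2 4.48, adjusted p = 0.0344), and Ptx3 had -0.13 ± 0.92. With DESeq2, Tgm1 and Cd109 passed as well (adjusted p = 0.0389 and 0.0110). These values share the uninjured animals with the injury comparison and the STAT3-CKO animals with the genotype comparison.

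Markers of other cell types were also compared between the injured groups. Of 4 Schwann cell markers 1 was higher in STAT3-CKO SCI HA IP, with a list median log2 change of 3.65 and summed levels of 11.9 to 28.4 CPM in STAT3-CKO SCI and 1.96 to 8.94 CPM in WT SCI, and their part in the genotype differences was not tested. None of the 12 microglia and macrophage markers passed between STAT3-CKO SCI and WT SCI HA IP (741 to 995 CPM against 574 to 2081 CPM summed), and none of the tested neuronal, endothelial, fibroblast, ependymal, oligodendrocyte precursor or astrocyte markers did. Mbp was lower in STAT3-CKO SCI (log2 -1.23 ± 0.27, adjusted p = 0.0328). Neutrophil markers summed to 0.130 to 1.33 CPM in STAT3-CKO SCI, with Camp, Ltf and Retnlg at 0 and 39 counts in the remaining markers of that list.

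In the flow-through 3 of the genes passed the filter, Emp1, Cd109 and S1pr3. Counts outside the ribosomal rows numbered 460759 to 4022328 in STAT3-CKO SCI, 91626 to 615302 in WT SCI and 2858044 to 10140612 in WT uninjured flow-through. Cd109 was at 0, 4.65, 3.69 and 5.11 CPM in WT SCI and 0.0636, 0.0433, 0.280 and 0.160 CPM in WT uninjured flow-through. Emp1 was at 7.88, 0, 8.12 and 0.341 CPM in WT SCI and 0.143, 0.130, 0 and 0.0602 CPM in WT uninjured flow-through. Both were higher after injury (log2 4.84 ± 0.78, adjusted p = 2.81e-05 for Cd109, and 5.11 ± 1.12, adjusted p = 0.000979 for Emp1), where 16.7% of 12685 genes were higher and 31% passed in either direction.

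These flow-through changes rest on 26 counts for Cd109 and 16 counts for Emp1 in the 4 WT SCI libraries. Without animal 9596 Cd109 fell below the filter, and without animal 9843 Emp1 did. In STAT3-CKO SCI flow-through both were again higher than in uninjured animals (log2 4.96 ± 0.76 for Cd109 and 5.51 ± 1.02 for Emp1), where 10.4% of genes were higher and 13.9% passed in either direction. With RLE scaling the split of all genes in that comparison was 1135 higher and 677 lower, in place of 1321 and 448. Microglia and macrophage markers summed to 2872 to 4009 CPM in STAT3-CKO SCI, 2689 to 7974 CPM in WT SCI and 33.5 to 68.8 CPM in WT uninjured flow-through, and their part in these changes was not tested.

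Between STAT3-CKO SCI and WT SCI flow-through none of the 3 genes passed by edgeR's quasi-likelihood test (0.118% of 12685 genes did) and none passed by DESeq2. S1pr3 alone had an unadjusted p under 0.05 (log2 -2.84 ± 1.09, adjusted p = 0.261). Tgm1 had 0 counts over the STAT3-CKO SCI flow-through libraries and 12 over the WT SCI ones, where 3 counts in a library equal 1.26, 0.877 and 0.134 CPM in STAT3-CKO animals 186, 531 and 270. Ptx3 had 0, 1 and 36 flow-through counts in STAT3-CKO SCI, WT SCI and WT uninjured animals. Its uninjured flow-through levels, at most 0.414 CPM, lie below the 3-count level of STAT3-CKO animals 186 and 531, so a difference was not detectable there.

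**Figure D4:**
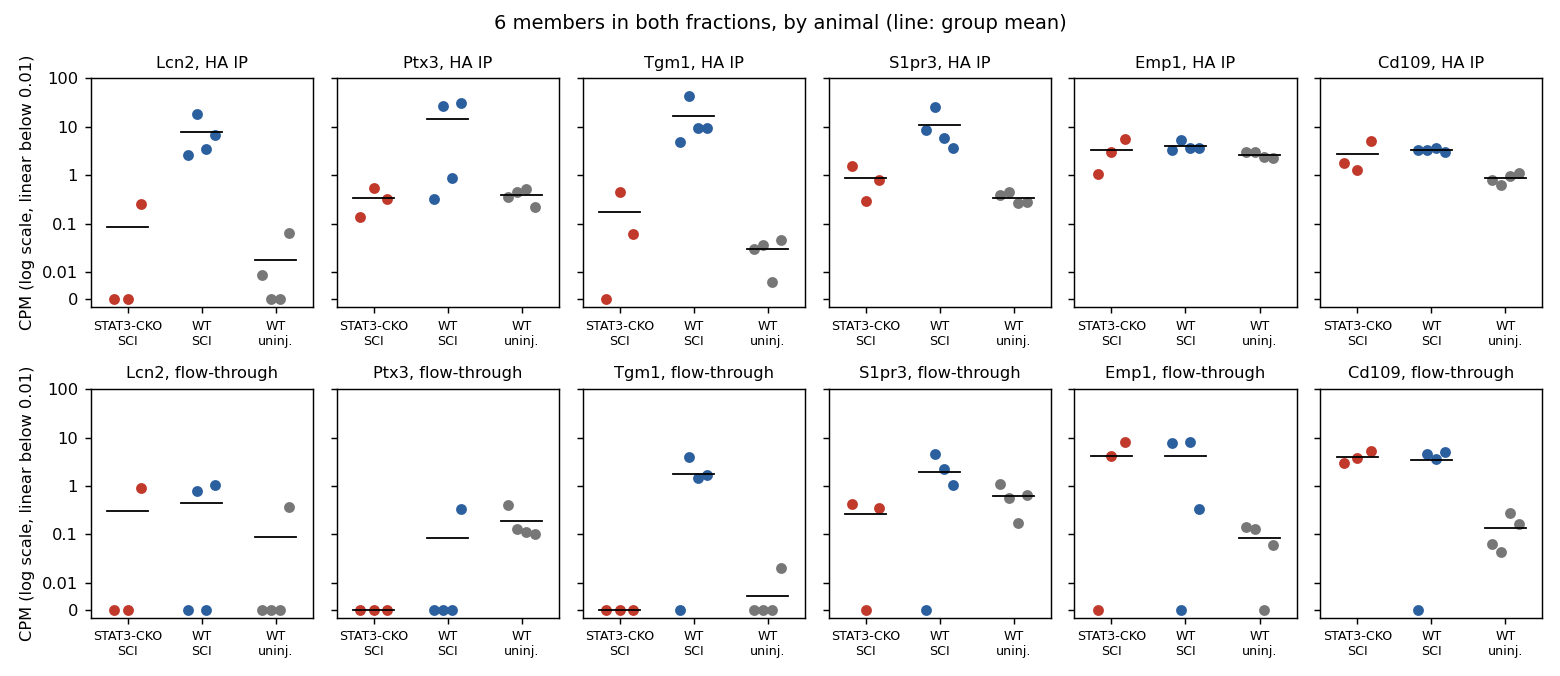
HA IP (top) and flow-through (bottom) levels of 6 of the genes by animal (CPM, log scale, linear below 0.01), with group means as lines; CPM are scaled within a fraction. Cd109 is at 2.93 CPM or more in the STAT3-CKO SCI libraries, at 3.69 CPM or more in WT SCI except animal 9935 at 0, and at 0.280 CPM or less in WT uninjured flow-through, while Ptx3 is at 0 in every STAT3-CKO SCI flow-through library.

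HA IP was then set against flow-through within a condition. In uninjured cord Emp1 (log2 5.07 ± 0.43, adjusted p = 4.92e-06), Cd109 (3.05 ± 0.53, adjusted p = 0.000652) and Aspg (3.22 ± 0.83, adjusted p = 0.00781) were higher in HA IP, 3 of 5 genes tested where 26.4% of genes were higher and 50.7% passed in either direction. Aspg did not pass without animal 154 (log2 2.54, adjusted p = 0.0775). S1pr3 did not pass (log2 -0.63 ± 0.50). In uninjured animals it was at 0.396, 0.443, 0.263 and 0.279 CPM in HA IP and 1.08, 0.563, 0.168 and 0.642 CPM in flow-through. These CPM were scaled within each fraction and are not on the joint scale of the test.

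After injury in WT animals Tgm1 was higher in HA IP (log2 3.30 ± 0.82, adjusted p = 0.0177), 1 of 4 genes tested, where 4.09% of genes were higher and 6.25% passed in either direction. It did not pass without animal 9874 (adjusted p = 0.138), 9843 (0.0771) or 9596 (0.0656). Lcn2, Ptx3 and Aspg failed the filter here and were not tested. Over the WT SCI group they had 292, 700 and 137 HA IP counts and 4, 1 and 2 flow-through counts. Library totals differ between the fractions, so these counts are not levels. Without the filter 3 genes passed, and 3 passed with all 22 libraries in the fit. With the animal as a block 2 genes passed, S1pr3 being the second (log2 2.37, adjusted p = 0.0280, against 2.57 ± 0.86 and 0.0817 without the block). In STAT3-CKO SCI none of 3 genes tested passed by edgeR's quasi-likelihood test, none by DESeq2 and none at an unadjusted p under 0.05, where 11.8% of genes passed. With flow-through counts subtracted the called genes were the same in number in each condition, with Tgm1 at 3.54 ± 0.85 in WT SCI and Emp1 at 5.35 ± 0.43 in uninjured cord.

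Whether injury acted differently in the fractions was tested by the interaction over all 22 libraries. Lcn2 (6.25 ± 1.81, adjusted p = 0.0388), Ptx3 (5.84 ± 1.73, adjusted p = 0.0472) and S1pr3 (3.43 ± 1.01, adjusted p = 0.0428) had a positive fitted difference between the log2 change with injury in HA IP and that in flow-through, and Emp1 a negative one (-4.39 ± 1.23, adjusted p = 0.0324). Lcn2 and Ptx3 had failed the filter in flow-through alone, with 4 and 1 flow-through counts in WT SCI, against 18 and 36 in WT uninjured animals. Since 3 counts equal 1.02 to 5.91 CPM in WT SCI flow-through, a rise of these genes to below that level was not detectable there. These were 4 of 8 genes, where 4.71% of 15142 genes passed. With the animal as a block 5 passed, Cd109 being the fifth (-2.89, adjusted p = 0.0114, against -2.75 ± 0.91 and 0.0802 without it). All 4 passed again with flow-through counts subtracted, where 10.3% of genes did.

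The interaction calls depended on the scaling and on single animals. The median of all genes was 0.26 with TMM and 0.06 with RLE scaling, and all genes split into 405 higher and 308 lower with TMM and 258 higher and 405 lower with RLE. With RLE Emp1 alone passed, and Lcn2, Ptx3 and S1pr3 had adjusted p-values of 0.0504, 0.0598 and 0.0640. Leaving out any 1 of the 8 WT animals lost at least 2 of the 4 calls, S1pr3 passing in none of the 8 fits. Lcn2 and Ptx3 still passed without animal 9935, where Cd109 passed as well (adjusted p = 0.0422), and at most 1 of the 4 passed in each other fit. Lcn2 had a log2 value of 2.70 without animal 154, whose flow-through held all 18 Lcn2 counts of uninjured flow-through. Ptx3 had a fitted 11.27 without animal 9596, which leaves no Ptx3 count in WT SCI flow-through. The genotype effect differed between fractions for none of the 8 genes by edgeR's quasi-likelihood test or by DESeq2 (0.0264% of genes passed), with 2 of the 8 at an unadjusted p under 0.05.

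Per kilobase of exon, the order of HA IP levels in WT SCI was Ptx3 (mean 5.52 CPM per kb), Tgm1 (5.26), Lcn2 (3.00), S1pr3 (2.41), Aspg (1.01), Emp1 (0.676), Cd109 (0.483) and Steap4 (0.346), with Slc10a6 and Ptgs2 lowest. Neighbours in this order overlapped over animals, except that every WT SCI animal had more Emp1 than any had Cd109 per kilobase. In STAT3-CKO SCI the order was led by Emp1 (0.549 CPM per kb) and Cd109 (0.390), ahead of S1pr3 (0.197). In WT uninjured animals Emp1 (0.449) and Aspg (0.206) led, and Lcn2 (0.00683) and Tgm1 (0.00930) were near the bottom.

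The 4 WT SCI animals did not rank alike across the genes. Animal 9874 had the highest Lcn2, Tgm1, S1pr3 and Emp1, and animal 9596 the highest Ptx3, Aspg and Steap4. Aspg was at 0.566 CPM in 9874, where Ptx3 was at 26.5 CPM, and at 5.87 CPM in 9935, where Ptx3 was at 0.326 CPM. Animals 9935 and 9843 have the fewest counts outside the ribosomal rows of this group, and 3 counts there equal 0.978 and 0.523 CPM.

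**Figure D5:**
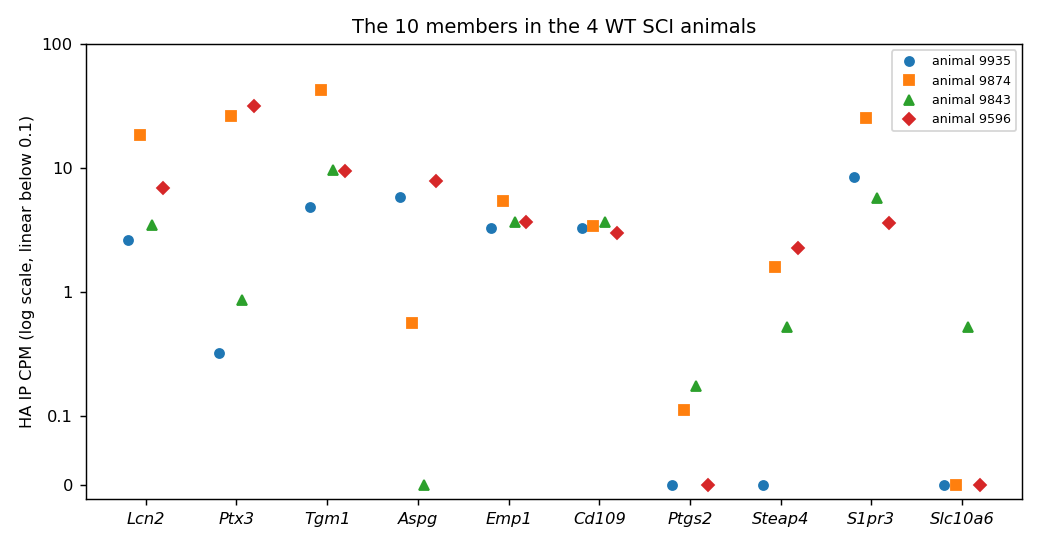
HA IP level (CPM, log scale, linear below 0.1) of the 10 genes in each of the 4 WT SCI animals. Cd109 spans 3.02 to 3.66 CPM while Ptx3 spans 0.326 to 31.5 CPM.

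The other genes of the same marker classes were set beside these 10. Of 9 further pan-reactive markers tested in HA IP, 6 were higher in WT SCI than in WT uninjured animals, median log2 3.23, led by Timp1 (7.76 ± 0.47) and Cxcl10 (5.86 ± 0.89), and 4 were lower in STAT3-CKO SCI than in WT SCI, median -1.92, led by Timp1 (-5.15 ± 0.48) and Hspb1 (-5.03 ± 0.42). Among the 4 pan-reactive genes described here, 3 were higher after injury and 3 lower in STAT3-CKO SCI. Of 6 further A2 markers, 3 were higher after injury (Clcf1 6.77 ± 1.65 and Cd14 4.51 ± 0.62 with the largest changes), S100a10 was lower (-1.37 ± 0.42), and none passed between STAT3-CKO SCI and WT SCI, Tm4sf1 coming nearest (-2.36 ± 0.62, adjusted p = 0.0650). Among the A2 genes described here 4 were tested, of which 3 were higher after injury and 2 lower in STAT3-CKO SCI. Of 11 A1 markers, the class named after inflammation in mouse astrocytes, 9 were higher after injury, Srgn (5.37 ± 0.81) and Iigp1 (4.65 ± 0.61) most. Between STAT3-CKO SCI and WT SCI 2 A1 markers were higher, Iigp1 (4.05 ± 0.59) and H2-D1 (1.33 ± 0.27), and none lower.

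Around Ptgs2, 12 of 14 genes of prostaglandin synthesis and reception were tested. After injury 5 were higher in HA IP (list median log2 1.30), led by the synthase Hpgds (log2 3.28 ± 0.65) and the receptor Ptger4 (2.24 ± 0.81), and none passed between STAT3-CKO SCI and WT SCI, the smallest p belonging to Hpgd (-0.91 ± 0.39, adjusted p = 0.248). Ptgs1, the constitutive cyclooxygenase, was at 5.80 to 15.8 CPM in STAT3-CKO SCI, 2.93 to 16.4 CPM in WT SCI and 1.02 to 3.36 CPM in WT uninjured HA IP, and was higher after injury (1.73 ± 0.54, adjusted p = 0.0228).

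Around S1pr3, 10 of 12 genes of sphingosine 1-phosphate metabolism and reception were tested. The list medians were 0.23 after injury and -0.19 between STAT3-CKO SCI and WT SCI. The receptor S1pr1 moved opposite to S1pr3: it was lower in WT SCI than in uninjured HA IP (log2 -2.60 ± 0.28, adjusted p = 3.10e-06) and higher in STAT3-CKO SCI than in WT SCI (1.51 ± 0.29, adjusted p = 0.0153). The phosphatase Sgpp2 (-2.37 ± 0.76) was also lower after injury, 3 of the list in all, while the kinase Sphk2 (1.76 ± 0.43) and the lyase Sgpl1 (1.74 ± 0.29) were higher. Around Lcn2, 7 of 8 iron-handling and binding partners were tested: the ferritin light chain gene Ftl1 was higher after injury (3.85 ± 0.34), Mmp9 (with no count in WT SCI) and the transferrin receptor gene Tfrc (-2.46 ± 0.53) were lower, and none passed between STAT3-CKO SCI and WT SCI.

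Relatives by family were set beside the 10 genes. The complement and alpha-2-macroglobulin relatives of Cd109 were all lower in STAT3-CKO SCI than in WT SCI HA IP (C3 log2 -3.08 ± 0.41, A2m -2.14 ± 0.31 and C4b -2.12 ± 0.33), while Cd109 did not pass (the difference between them was not tested), and A2m and C4b were higher after injury. The transglutaminase Tgm2 was higher after injury (3.10 ± 0.41) and did not pass between STAT3-CKO SCI and WT SCI (-1.18 ± 0.43, adjusted p = 0.177). Of 3 lipocalin relatives of Lcn2 tested, 2 were higher after injury, Apod among them (3.38 ± 0.34), and none passed between STAT3-CKO SCI and WT SCI. Emp2 was lower after injury (-1.17 ± 0.38) where Emp1 did not pass. No tested relative of Ptx3, Steap4, Slc10a6 or Aspg passed in either of these comparisons (2, 3, 3 and 2 tested).

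Over the 11 HA IP libraries the gene whose centred log2 CPM lay nearest to Lcn2 was Wisp2 (root mean square difference 1.11), to Tgm1 Timp1 (1.43), to Ptx3 Cldn14 (1.30), to Aspg 1810044D09Rik (0.750), to S1pr3 Tnfrsf13c (0.722), to Steap4 Podn (1.20), to Cd109 Msn (0.478) and to Emp1 Kremen1 (0.274). Within the 10, Emp1 and Cd109 were nearest to each other (0.849), followed by Lcn2 and Tgm1 (1.51).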

How the data were processed

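Counts per gene were deposited by the authors in 5 tables that hold the same 22 libraries in different comparisons, and 124 other per-sample columns were not used. Per the submitters' processing notes, CASAVA 1.8.2, edgeR and the mm10 build were used; the sources used here name neither the aligner nor the strand setting. The authors also deposited log2 fold changes and p-values with FDR for their own comparisons, which served only for a count of calls. There 6, 5 and 3 of the 10 genes have an FDR under 0.05 for HA IP in WT SCI against WT uninjured, STAT3-CKO SCI against WT SCI and STAT3-CKO SCI against WT uninjured animals. The counts here were 6, 5 and 1. In the last of these comparisons Tgm1 and Cd109 were called by the authors but did not pass here. In flow-through the authors' counts are 4, 1 and 2 in the same order of comparisons, against 2, 0 and 2 here. For HA IP against flow-through they are 1, 5 and 5 in STAT3-CKO SCI, WT SCI and WT uninjured animals, against 0, 1 and 3 here. Fewer of the 10 genes were tested here in these comparisons. For HA IP against flow-through, S1pr3 in WT SCI and Ptx3 in WT uninjured animals were called by the authors. Both were tested here and did not pass. Per the labels' protocols, 5 ng of RNA and 10 PCR cycles were used, so reads are not independent molecules and intervals and floors cover counting error only.

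Raw counts were tested with edgeR 4.0.16 in R 4.3.3 (filterByExpr, TMM, quasi-likelihood F test, two-sided, Benjamini-Hochberg over all genes tested), with the 11 libraries of a fraction in 1 fit, the libraries of 1 condition for HA IP against flow-through, and all 22 for interactions. A gene passed at an adjusted p under 0.05. CPM use TMM-scaled library sizes within a fraction, so levels are not set across fractions. DESeq2 1.42.0, RLE scaling, no filter, removal of ribosomal rows, thinning to equal depth, fits of 2 groups, each animal left out and the animal as a block were alternatives. The procedure was tested on simulated data. Replicates are separate animals by the labels' animal numbers. The fractions of an animal come from 1 homogenate, and their deviations from group means correlated at 0.319 to 0.679 in the 11 animals. Exon lengths and overlaps came from GENCODE vM21 (GRCm38) and promoters from RefSeq (GRCm38.p6).

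The 10 genes, and the lists of relatives, pathways, marker classes and cell types, were chosen with earlier results of these data known. From each other list at most 2 called genes per direction with the largest change were named, or the one with the smallest p where none passed, and any tested relative of a gene described. Some results on genes of these lists are not reported here. Likeness is the root mean square difference of centred log2 CPM (prior count 2) over the 11 HA IP libraries.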

Additional observations from a re-analysis of the deposited data

Results flagged for a closer look

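In groups of 4 animals, single values stood apart from the rest of their group by the gap to the nearest neighbour (Dixon's criterion). For continuous values chance alone gives this in about 1 in 20 sets, and 40 sets were tested. That rate does not hold for sets with counts in only 1 animal, which meet the criterion whatever the count. In WT SCI HA IP the values that stood apart were Tgm1 in animal 9874 (42.5 CPM) and Slc10a6 in animal 9843 (0.523 CPM), and in WT uninjured HA IP Lcn2 in animal 154 (0.0628 CPM). In WT SCI flow-through they were Ptx3 and Aspg in animal 9596 (0.341 and 0.681 CPM), Ptgs2 and Slc10a6 in animal 9843 (0.738 CPM each) and Steap4 in animal 9874 (6.97 CPM). In WT uninjured flow-through they were Lcn2 and Tgm1 in animal 154 (0.361 and 0.0201 CPM) and Ptx3 and Aspg in animal 42 (0.414 and 0.254 CPM). In flow-through, all but Steap4, Lcn2 in animal 154, and Ptx3 and Aspg in animal 42 rest on 1 or 2 reads. By the interaction test the fitted injury effect differed between HA IP and flow-through, on few flow-through counts, for Lcn2 (log2 6.25), Ptx3 (5.84), S1pr3 (3.43) and Emp1 (-4.39).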

How the results depend on the processing

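Of the values of single genes tallied under the alternatives, 460 kept direction and side of the threshold, 61 no longer passed, 13 newly passed and 9 changed sign. The tally leaves out genes not tested under an alternative, so calls lost to the filter are not in it. It also leaves out the genotype interaction, HA IP against flow-through in STAT3-CKO SCI and some values of other comparisons. In HA IP, thinning to equal depth left 3 calls for WT SCI against WT uninjured (6), 3 for STAT3-CKO SCI against WT SCI (5) and 0 for STAT3-CKO SCI against WT uninjured (1), where Lcn2 and Tgm1 then had log2 changes of -1.53 each. After thinning 5 genes passed the filter in HA IP, in place of 8. For 1 lost call the gene was still tested, and for the other lost calls it was not. Fits of 2 groups gave 2 for STAT3-CKO SCI against WT SCI and 2 for STAT3-CKO SCI against WT uninjured, where DESeq2 gave 3 and Emp1 had a log2 change of -0.023 after subtraction. In flow-through, thinning and 2-group fits gave 0 calls for WT SCI and for STAT3-CKO SCI against WT uninjured (2 each) because Emp1 and Cd109 then failed the filter and were not tested, and no filter gave 4 for the WT comparison. For HA IP against flow-through in WT SCI (1), no filter and all 22 libraries gave 3 each and DESeq2 2. For the injury interaction (4), RLE scaling gave 1 and removal of ribosomal rows 2. With the animal as a block, 2 genes passed for HA IP against flow-through in WT SCI and 5 for the injury interaction, and no other count of calls changed (0 in STAT3-CKO SCI, 3 in uninjured cord and 0 for the genotype interaction).

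Leaving out 1 animal gave 5 to 7 calls in HA IP for WT SCI against WT uninjured, 1 to 5 for STAT3-CKO SCI against WT SCI and 0 to 1 for STAT3-CKO SCI against WT uninjured; in flow-through 1 to 2, 0 and 2; for HA IP against flow-through 0 in STAT3-CKO SCI, 0 to 2 in WT SCI and 2 to 4 in uninjured cord; and for the interactions 0 to 3 (injury) and 0 (genotype). Signs changed in STAT3-CKO SCI against WT uninjured for Lcn2 (-4.14 to 4.48), Ptx3 (-0.58 to 0.12) and Emp1 (-0.38 to 0.71), and against WT SCI for Emp1 (-0.96 to 0.12) and Cd109 (-1.15 to 0.052). The cause was not tested. Over all genes, STAT3-CKO SCI against WT SCI gave 171 calls in HA IP with edgeR, 903 with DESeq2, 36 with 2 groups and 103 thinned, and in flow-through 15 with edgeR, 205 with DESeq2, 131 without a filter and 4 with 2 groups. Low depth in WT SCI limits every comparison: 3 counts equal 0.206 to 0.978 CPM in HA IP and 1.02 to 5.91 CPM in flow-through.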
